A study of Mus musculus with 6 samples.

Results

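Penk, the gene of proenkephalin, and Mme, the gene of neprilysin, were followed in mouse embryonic fibroblasts that lack Kdm5a. Every probe set that the platform annotation gives to only 1 of these genes was taken, which left 1 probe set for Penk and 2 for Mme among the 45101 of the array (2 genes of 18194). The genes were chosen by their large differences between the first and the second KDM5A arrays, so those differences are given as a description without a test. The cells were an immortalized culture of mixed strain background with both copies of Kdm5a deleted, in the controls as well. The 3 lines compared received the empty vector (EV) alone, KDM5A of wild-type sequence (WT), or KDM5A-H483A (H483A), a form with 1 altered residue in the demethylase domain. All 3 were kept below confluence in DMEM with serum and detached with trypsin. Each of the 3 groups had 2 arrays, labelled as biological replicates 1 and 2. How the cultures were separated, whether the lines were clones, and how the KDM5A sequence was delivered could not be taken from the labels. P-values therefore measure only the spread between these samples, and the number of arrays limits the precision.

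Proenkephalin is a secreted precursor that prohormone convertases and carboxypeptidases cut into several enkephalins, short peptides that activate the delta and mu opioid receptors. Neprilysin, also known as CD10 or CALLA, is a membrane-bound zinc peptidase of the M13 family with its active site outside the cell, and it is one of the enzymes that inactivate enkephalins. Besides neurons, mesenchymal cells of embryos are known to express Penk, and many stromal cells carry neprilysin. Penk is also a textbook target of factors of the AP-1 and CREB families. KDM5A removes methyl groups from lysine 4 of histone H3.

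RefSeq promoter windows of GRCm38.p6, which reach from 250 bases before to 50 bases after a transcript start, were matched by symbol for 1 of the 2 genes, Mme, which has 3 annotated starts. They are shown for the AP-1 motif, since Fos, the gene of an AP-1 subunit, had a large first-minus-second difference in both KDM5A groups. Fos was the only other such gene of the pathway lists, beside 0.808% of all genes. This choice rests on the same data, and a link between Fos, the motif and Mme was not tested. The windows of the second and the third start share the only match found, to the AP-1 motif TGANTCA. It lies 8 bases after the second start and 215 bases before the third, and it is in capitals in the first sequence below (chr3:63295869-63295898, + strand). The 250 bases before the first start (chr3:63294961-63295210, + strand) follow in lower case, since none of the motifs searched was found there.
Mme AP-1 match: aatcccactggTGAGTCAccggagagcgaa
Mme before first start: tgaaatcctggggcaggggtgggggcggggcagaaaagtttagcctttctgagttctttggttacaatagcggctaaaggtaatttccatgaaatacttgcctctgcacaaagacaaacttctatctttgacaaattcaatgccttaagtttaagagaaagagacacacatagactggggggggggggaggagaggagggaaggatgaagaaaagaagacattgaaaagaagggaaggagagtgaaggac

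The motifs were searched on both strands. TGANTCA occurred in 7.81% of all 32851 promoter windows, and 8.97% of the 27025 genes had it in at least 1 of their windows. The CRE motif TGACGTCA, its core TGACG, which lies within the full motif, the TATA motif TATAAA and the E-box CACGTG had 0 matches in the 3 Mme windows, against 1.79%, 20.8%, 13.6% and 7.15% of all windows. The GC content of the Mme windows was 46%, 73% and 72.3% in the order of the starts. A match shows only that the letters are present.

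The arrays of the KDM5A groups stood further apart than those of the empty vector group, which bears on every value of Penk and Mme. A difference of at least 1 log2 unit, which is 2-fold, is used as a step here. In the EV group, 0.115% of genes were higher in the first array by this step and 0.033% in the second. In the WT group these shares were 1.47% and 0.379%, and in the H483A group 1.46% and 0.934%. In both KDM5A groups together, 0.808% of genes were higher in the first arrays and 0.0989% in the second. The deleted gene was read by 6 Kdm5a probe sets, and in 0 of 6 did all KDM5A arrays lie above both EV arrays. The largest difference between the mean of the KDM5A arrays and that of EV was -0.25 on the log2 scale. Whether these probes lie in the deleted part or match the introduced sequence is not known here, so they do not check the labels.

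Penk was bright on every array and ranged 3.97 log2 units across them. Its single probe set (1427038_at) had log2 values of 11.19 and 9.43 on the first and second EV arrays, 11.97 and 8.0 on those of WT, and 11.83 and 8.88 on those of H483A. All 3 first arrays stood above all 3 second arrays. The first array was 15.7-fold brighter than the second in WT and 7.73-fold in H483A. In bulk RNA, fewer cells that express a gene and less of its RNA per cell cannot be told apart.

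The empty vector arrays took no part in the choice of genes, and Penk differed between them as well. Its first-minus-second difference of 1.76 on the log2 scale, a 3.4-fold difference, was the highest of all 18194 genes there. The next highest was 1.70, for Igfbp2, an insulin-like growth factor binding protein. With 1 array on each side this has no replicate check and no test. Across all genes the EV difference correlated with that of WT at 0.31 and with that of H483A at 0.02. The EV rank is therefore not independent of a choice made on the KDM5A arrays. In the KDM5A groups, whose arrays were used in the choice, Penk ranked first of all genes in WT and 9th in H483A.

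Mme had its widest swing in the brighter of its probe sets. That probe set (1455961_at) had log2 values of 7.71 and 7.03 in EV, 9.02 and 5.22 in WT, and 8.59 and 4.68 in H483A, a range of 4.34. The first array was 14-fold brighter than the second in WT and 15.1-fold in H483A, against 1.6-fold in EV. Mme ranked 2nd of all genes by this difference in WT, first in H483A and 126th in EV. Of these ranks, those in WT and H483A come from the arrays used in the choice of genes.

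The dimmer Mme probe set (1422975_at) followed the KDM5A arrays in the same direction with a smaller swing. It had log2 values of 4.49 and 4.59 in EV, 5.55 and 4.08 in WT, and 4.95 and 4.27 in H483A. The first-minus-second difference was 1.47 and 0.68 in the KDM5A groups, and -0.10 in EV, where the brighter probe set gave 0.68. The mean brightness of this probe set lay at the 51.3rd percentile of all probe sets, against 81.9 for the brighter one, and no detection call shows whether it was above background. Over the 6 arrays, Pearson's r between the Mme probe sets was 0.871. Between Penk and the brighter Mme probe set it was 0.936, and between Penk and the dimmer one 0.843. These 6 points share the arrays and the contrast by which the genes were chosen.

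**Figure D1:**
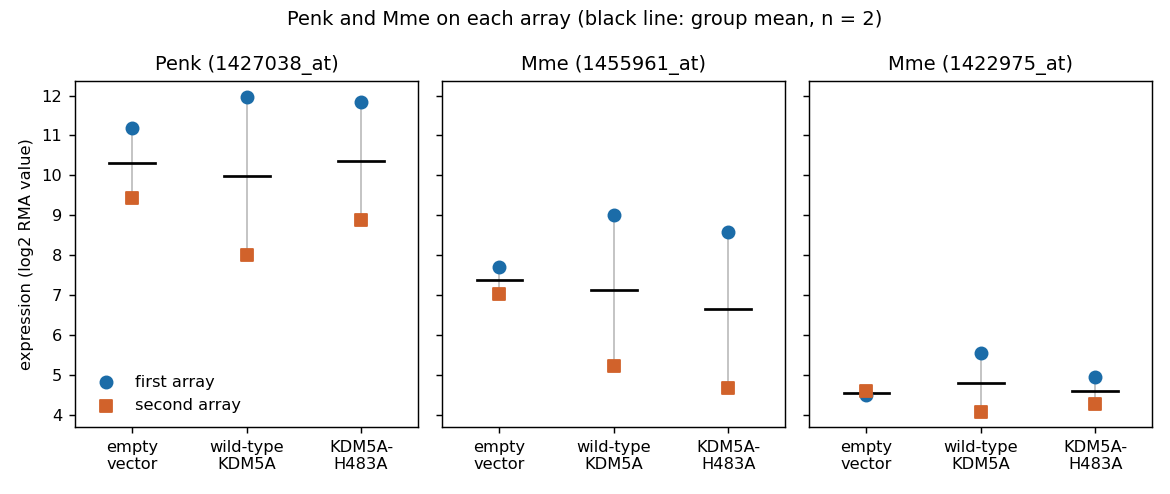
Log2 RMA value (vertical axis) of the Penk probe set and both Mme probe sets in the 3 groups, with circles for first arrays, squares for second arrays and a black line for the mean of 2. First arrays lie above second arrays in every group for Penk and the brighter Mme probe set, while the dimmer one differs by only -0.10 in EV.

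The mean first-minus-second difference over both KDM5A groups was 3.86 ± 0.08 for Mme and 3.46 ± 0.72 for Penk (SD over 2 groups), equal to 14.5-fold and 11-fold. It exceeded the empty vector difference by 3.19 for Mme and 1.70 for Penk. Ordered by the KDM5A mean, Mme came first and Penk 5th of all genes. The genes were chosen by this difference, so the ranks and the excess over empty vector are description only. Ifit1 at 3.65, Cxcl15 at 3.62 and Hmcn1 at 3.56 stood between them, and Postn came just after Penk at 3.29.

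**Figure D2:**
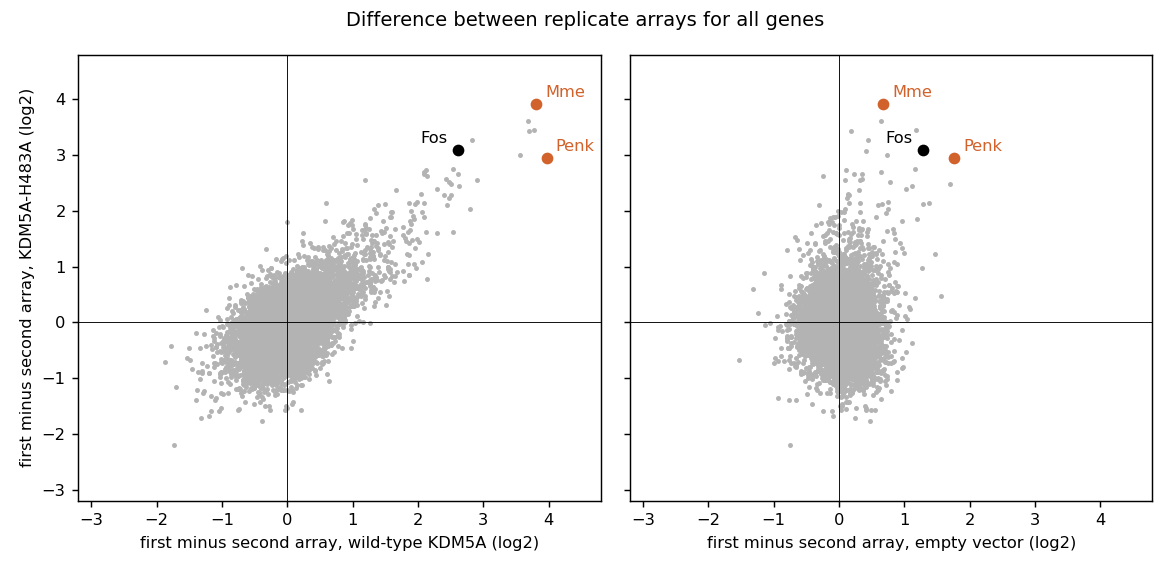
Each grey point is 1 of 18194 genes, with the first-minus-second difference (log2) in H483A on the vertical axis against that in WT (left) or empty vector (right). Mme and Penk lie at the upper right edge on the left, and Penk is farthest to the right in the empty vector panel at 1.76.

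For both genes, the empty vector arrays lay between the first and the second KDM5A arrays. For Penk, the lower of the first KDM5A arrays stood 0.64 above the higher empty vector array, and the higher of the second KDM5A arrays stood 0.55 below the lower empty vector array. For Mme these gaps were 0.89 and 1.82 in the brighter probe set and 0.36 and 0.22 in the dimmer one. This order was found in 4.51% of all genes, and the opposite order, with the second KDM5A arrays on top, in 3.36%. The rule used the KDM5A arrays, so nothing is read from these shares.

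Set against the empty vector array of the same number, the KDM5A arrays thus differed in sign. First arrays gave Penk differences of 0.78 in WT and 0.64 in H483A, and second arrays -1.43 and -0.55. For Mme the first arrays gave 1.31 and 0.89, and the second arrays -1.82 and -2.35. Between the KDM5A forms, H483A minus WT was -0.14 and 0.88 for Penk and -0.43 and -0.54 for Mme, on first and second arrays.

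The design asks whether KDM5A, and its catalytic residue, change expression. The group means of Penk and Mme lay close together for the size of their spread. Penk stood at 10.31 ± 1.25 in EV, 9.98 ± 2.81 in WT and 10.35 ± 2.09 in H483A (SD, n = 2). From high to low the order was H483A, EV and WT, and no neighbours in it differed beyond their spread. Mme stood at 7.37 ± 0.48 in EV, 7.12 ± 2.69 in WT and 6.64 ± 2.77 in H483A, which is its order from high to low, and again no neighbours differed beyond their spread. The dimmer Mme probe set stood at 4.54 ± 0.07, 4.81 ± 1.04 and 4.61 ± 0.48 in EV, WT and H483A.

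In limma's fit over all genes, neither gene passed the threshold of 0.05 in any comparison. Limma called 0% of all genes (0 of 18194) in WT minus EV, 0% in H483A minus EV and 0% in H483A minus WT. At an unadjusted p under 0.05 there were 459, 301 and 694 genes. In WT minus EV, Penk had a log2 fold change of -0.33 with an SE of 1.47 and a 95% interval from -3.87 to 3.22 (limma adjusted p = 1). In H483A minus EV it was 0.04, with an interval from -3.50 to 3.58 (limma adjusted p = 0.999), and in H483A minus WT 0.37, with an interval from -3.17 to 3.91 (limma adjusted p = 0.982). For Mme the 3 fold changes were -0.25 with an interval from -3.96 to 3.46 (limma adjusted p = 1), -0.73 from -4.44 to 2.97 (limma adjusted p = 0.999), and -0.48 from -4.19 to 3.23 (limma adjusted p = 0.974). The intervals reach from more than 3 log2 units lower to nearly 3 or more higher. The median gene had an interval of 0.37 to either side.

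Single arrays set the sign of these fold changes, both EV arrays included. In WT minus EV, Penk was at -2.31 without the first WT array and at 1.66 without the second, and Mme at -2.16 and 1.65. Without the first EV array the sign also turned in that comparison, to 0.56 for Penk and 0.09 for Mme. In H483A minus EV, Penk was at -1.43 without the first H483A array, at 1.52 without the second and at -0.84 without the second EV array, while Mme was at -2.69 and 1.22 without the first and second H483A array. In H483A minus WT, Penk turned to -1.62 without the second WT array and -1.11 without the first H483A array, and Mme to 1.42 without the first WT array and 1.48 without the second H483A array. Limma's adjusted p was at least 0.547 in all of these.

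**Figure D3:**
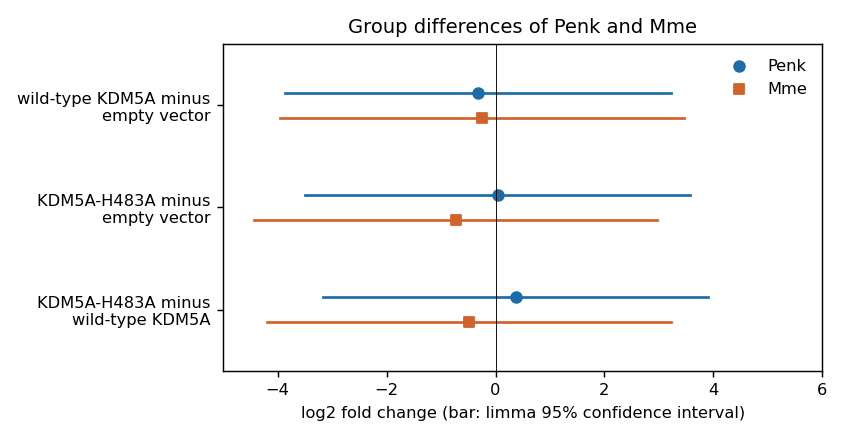
Log2 fold change (horizontal axis) of Penk (circles) and Mme (squares, brighter probe set) for the 3 group comparisons, with bars for limma's 95% confidence interval. All 6 intervals include 0 and are wide, such as -3.87 to 3.22 for Penk in WT minus EV.

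The remaining opioid precursors did not share the swing of Penk. Pdyn, which encodes the precursor of dynorphins, lay between 3.33 and 3.60 on all arrays. Pomc, whose product gives beta-endorphin and ACTH, lay between 5.62 and 5.86, and Pnoc, the precursor of nociceptin, between 3.66 and 4.08. Their first-minus-second differences in WT were 0.03, 0.15 and -0.04, against 3.97 for Penk, which was chosen by this difference.

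The opioid receptors were flat across the arrays as well. The mu receptor gene Oprm1 lay between 5.27 and 5.68, the delta receptor gene Oprd1 between 3.68 and 4.09, the kappa receptor gene Oprk1 between 5.12 and 5.50, and the nociceptin receptor gene Oprl1 between 4.43 and 4.76. Ogfr, the gene of a separate receptor for enkephalin that acts on growth, lay between 7.51 and 8.06, with its highest value on the first wild-type KDM5A array. Whether the dim receptor probe sets lay above background cannot be read from these values.

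Of 16 genes of prohormone processing, 15 were measured, and 0 differed by the 1-unit step in both KDM5A groups. The shares over all genes were 0.808% with the first arrays higher and 0.0989% with the second higher. At such shares, 0 in a short list says little about these genes. Cpe, the carboxypeptidase that trims peptides after convertase cleavage, had log2 values of 11.06 and 10.75 in EV, 10.91 and 10.68 in WT, and 10.88 and 11.06 in H483A. It was bright on all arrays and did not follow Penk. The convertase gene Furin lay between 7.31 and 7.61. Pcsk1, the neuroendocrine convertase gene that acts on proenkephalin, lay between 4.62 and 5.04, and Scg5, which encodes the chaperone of the related convertase PC2, between 2.59 and 3.01.

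Within the M13 family, Mme was the only one of 7 genes with a step of 1 unit between arrays of any group. Mme was chosen by this difference, and in a KDM5A group at most 1.47% of all genes reached the step in 1 direction. That it stands apart from its relatives is therefore description only. Ece1, an endothelin-converting enzyme gene, had log2 values of 6.87 and 7.08 in EV, 7.26 and 7.16 in WT, and 7.41 and 7.30 in H483A. Its difference from EV was 0.24 in WT and 0.39 in H483A, with limma's adjusted p at 1 and 0.999. In a second Ece1 probe set (1455741_a_at) the groups overlapped, at 7.06 and 7.11 in EV, 7.41 and 7.03 in WT, and 7.20 and 7.05 in H483A. Ece2, the gene of a related converting enzyme, lay between 6.60 and 6.91, and Ecel1, a neuronal relative, between 4.06 and 4.63. Mmel1, the closest relative of neprilysin, lay between 3.37 and 3.61. Kel, the Kell blood group peptidase, lay between 3.56 and 3.91, and Phex, a regulator of phosphate handling, between 3.46 and 3.70. Over the 14 precursor, receptor and M13 genes other than Penk and Mme, the largest difference between arrays of a group was 0.57, in Ecel1. Their 12 further probe sets reached at most 0.52, in Phex.

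Other peptidases that can cleave enkephalins showed differences under the step in the probe set that stood for each gene, while a second one of Nln, the neurolysin gene (1424981_at), differed by -1.04 in H483A and -0.31 in WT. Anpep, which encodes aminopeptidase N, had log2 values of 5.14 and 4.95 in EV, 5.07 and 4.62 in WT, and 5.17 and 4.84 in H483A. It was thus higher in the first array of every group, by 0.19, 0.46 and 0.33. Dpp3, an enkephalin-degrading dipeptidyl peptidase gene, was at 7.15 on the second KDM5A-H483A array and between 6.12 and 6.39 on the others. Of 8 genes in this list, 7 were measured, and the median first-minus-second difference was -0.15 in EV, -0.04 in WT and -0.21 in H483A, where the median over all genes was 0.00, 0.02 and 0.00.

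Among 15 measured genes of other neprilysin substrates, 0 reached the step in both KDM5A groups. With shares of 0.808% and 0.0989% over all genes, first and second arrays higher, this too says little. App, the precursor of amyloid-beta, came nearest in WT, at 11.58 and 10.76, and stood at 11.37 and 10.81 in H483A and 11.33 and 11.14 in EV. Adm, the gene of the vasodilator adrenomedullin, had first-minus-second differences of 0.64 in both KDM5A groups and 0.26 in EV. Tac1, the substance P precursor, lay between 4.21 and 4.65, and Edn1, the endothelin precursor, between 5.09 and 5.28.

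**Figure D4:**
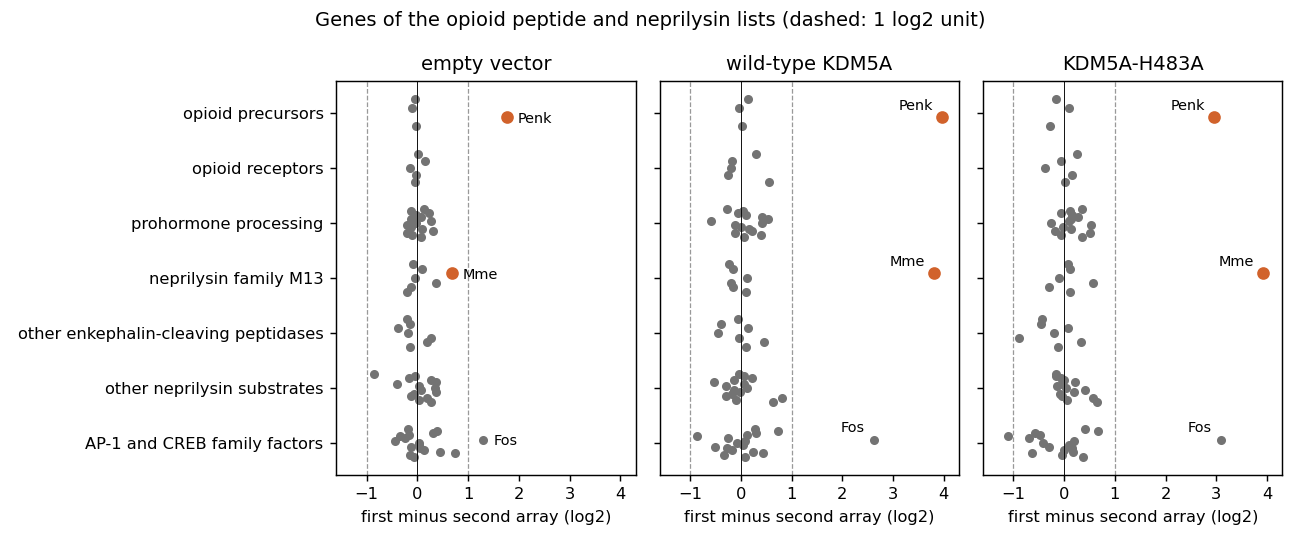
First-minus-second difference (log2, horizontal axis) of each measured gene in the 7 lists (rows), 1 panel per group, with dashed lines at 1 log2 unit. Penk and Mme, which were chosen by this difference, and Fos stand alone to the right of the line in both KDM5A groups.

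Fos was the only gene of the 68 measured in these lists, apart from Penk and Mme, that reached the step in both KDM5A groups, beside 0.808% of all genes. Fos, an immediate early gene whose product pairs with Jun proteins in AP-1, had log2 values of 8.82 and 7.52 in EV, 9.70 and 7.08 in WT, and 9.51 and 6.41 in H483A. Its first arrays stood above its second arrays in all groups, by 1.29, 2.62 and 3.09. Pearson's r over the 6 arrays was 0.946 with Penk and 0.970 with Mme, given as a description.

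The other AP-1 and CREB genes did not share this swing. Junb, a Jun family gene, differed by 0.39, 0.73 and 0.66 in the order EV, WT and H483A. Fosl1, which encodes the Fos relative FRA-1, went the other way, with differences of -0.34, -0.87 and -1.11. Jun differed by 0.30, 0.29 and -0.58, Fosb by -0.25, -0.25 and -0.69, and Creb1, the CREB gene, by 0.44, 0.25 and 0.18. A second Jun probe set of similar brightness (1448694_at) had other signs in EV and WT, with -0.10, -0.62 and -0.62. The median over the 17 measured genes of this list was 0.03, 0.08 and 0.00.

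In the group comparisons, limma called 0 of the 70 measured genes of all 7 lists, Penk and Mme included. At an unadjusted p under 0.05 there was 1 of them in WT minus EV, 3 in H483A minus EV and 2 in H483A minus WT, beside 2.52%, 1.65% and 3.81% of all genes. The first was Tac1, at -0.39 (limma adjusted p = 1). The 3 were Ece1 and Jun, at 0.39 and 0.56, and Pnoc, at -0.33 (limma adjusted p = 0.999 for each). The 2 were Pam, the peptide amidating enzyme gene, at -0.51, and Crebbp, the CREB-binding coactivator gene, at -0.51 (limma adjusted p = 0.928 and 0.928). A second bright Crebbp probe set (1436983_at) went the other way, at 7.40 and 7.18 in WT and 7.75 and 8.17 in H483A. The groups overlapped in another (1434633_at), at 6.68 and 6.97 against 6.52 and 6.80. A dim one (1459804_at) was lower in H483A, at 4.08 and 3.60 against 4.24 and 4.11. For Jun, EV and H483A overlapped in a second probe set (1448694_at), at 7.87 and 7.97 against 7.70 and 8.33. EV and WT overlapped in a second, dim Tac1 probe set (1416783_at), at 2.86 and 2.95 against 3.03 and 2.63.

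The genes most like Penk over the 6 arrays were sought among 958 genes that were brighter than the median gene and ranged at least 1 log2 unit. The 5 with the highest Pearson's r were Rgs2, a regulator of G protein signalling (0.998), Tmem119, a membrane protein gene of bone-forming cells and microglia (0.995), the nuclear noncoding RNA Neat1 (0.992), Ddit4, a stress-induced inhibitor of mTORC1 (0.992), and Dkk3, a secreted Dickkopf family protein (0.991). Rgs2 had log2 values of 7.08 and 6.22, 7.41 and 5.42, and 7.31 and 5.81 in EV, WT and H483A, so its swing of 1.99 in WT was smaller than that of Penk. The 3 genes with the lowest r were Noct, a circadian phosphatase gene (-0.997), Mybbp1a, a nucleolar protein gene (-0.992), and Bend3, a chromatin repressor gene (-0.989).

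For Mme, the 5 genes were Adgrg2, an adhesion G protein-coupled receptor (0.998), Slc14a1, a urea transporter (0.995), Cdon, a cell surface co-receptor of hedgehog signalling (0.994), Mfap5, a microfibril protein (0.993), and the chemokine gene Cxcl5 (0.993). Adgrg2 had log2 values of 8.33 and 7.97, 9.31 and 6.88, and 8.90 and 6.33. The 3 lowest were Specc1, a cytoskeletal protein gene (-0.995), Ccn2, a matricellular protein gene known as a target of YAP (-0.995), and Smim4, a mitochondrial assembly gene (-0.986). Ccn2 had first-minus-second differences of -0.34, -1.38 and -1.22. A second probe set of Neat1 (1442881_at) differed by only 0.17 and 0.16 in the KDM5A groups, while a second one of Slc14a1 (1448640_at) differed by 2.47 and 1.93. With 6 arrays and so many candidates, r values this high describe the profiles and carry no test.

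**Figure D5:**
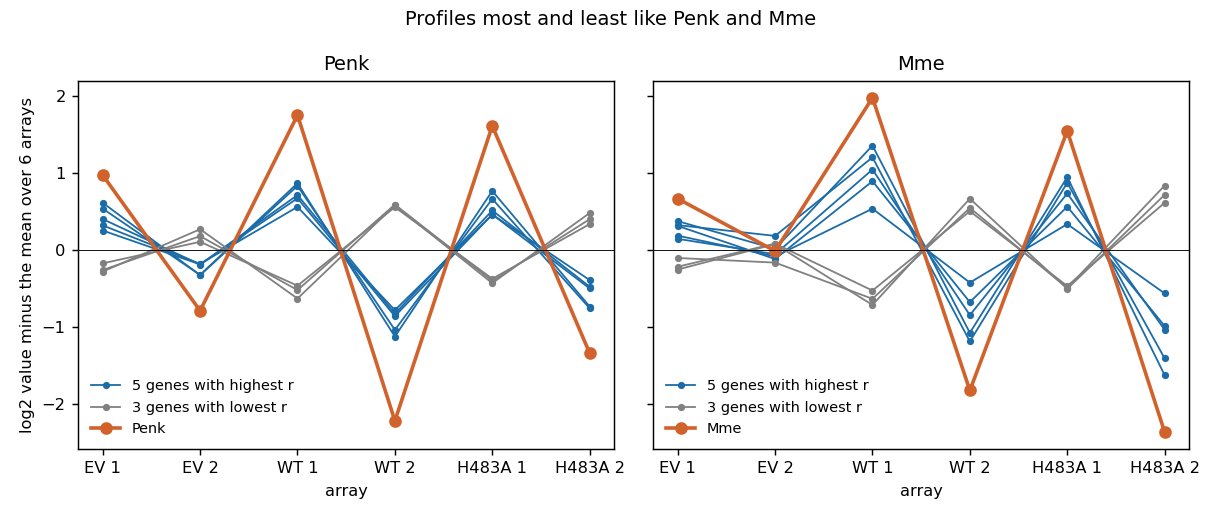
Log2 value minus the gene's mean over the 6 arrays (vertical axis) on each array (horizontal axis) for Penk and Mme in orange, the 5 genes with the highest r in blue and the 3 with the lowest in grey. The lines join arrays only to guide the eye. Penk and Mme, chosen for a large swing, swing more widely than the genes shown with the highest r.

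The labelled cell type was checked against 12 fibroblast marker genes, all of them measured, with a mean log2 level between 9.4 and 10.44 on the 6 arrays. The mean was 10.15 and 9.88 in EV, 10.44 and 9.4 in WT, and 10.26 and 9.45 in H483A, so it moved in the same direction as Penk and Mme. Of these markers, 4 of 12 were higher by the step in the first array of both KDM5A groups, against 0.808% of all genes. They were Col1a1, Col3a1, Dcn and Lum, all genes of matrix proteins. Other matrix genes of the list, Col1a2 and Fn1, stayed under the step in the probe sets that stood for them. Col1a2 differed by 0.08, 0.73 and 0.76 in EV, WT and H483A, and Fn1 by -0.16, 0.26 and 0.20. A second bright probe set of Col3a1 (1427884_at) differed by 3.15 in WT and 3.33 in H483A, but one of Col1a1 (1455494_at) by only 0.09 and 0.41. Dcn, the gene of decorin, had first-minus-second differences of 1.03, 2.30 and 2.40, and Pearson's r of 0.963 with Penk and 0.985 with Mme, while a dim second probe set of Dcn differed by -0.12, 0.18 and 0.03. Vim, the intermediate filament gene vimentin, differed by 0.03, 0.06 and -0.38, and the surface marker gene Thy1 by 0.18, 0.06 and -0.52. The median over the list was 0.19, 0.87 and 0.84. The part of the matrix genes in the Penk and Mme differences was not tested.

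No marker of another cell type reached the 1-unit step in both KDM5A groups, where the shares over all genes were 0.808% and 0.0989%. Of 41 such genes for epithelium, endothelium, leukocytes, B-cell precursors, neurons and glia, muscle, fat and bone, 38 were measured, and 25 were below 5 on every array. Their mean log2 level lay between 4.39 and 4.49 on the 6 arrays. The brightest of the 38 reached 6.65 (Kdr), 6.57 (Fabp4), 6.45 (Acta1), 6.40 (Csf1r) and 6.39 (Rbfox3) on their highest array. The largest difference between KDM5A arrays was 0.66, in Igll1. All of these values come from the probe set that stood for each gene. Other probe sets differed by -0.74 for Gfap (1426509_s_at) in WT and by -0.70 for Fabp4 (1417023_a_at) in H483A. A further Epcam probe set (1447899_x_at) lay between 7.19 and 7.46, while the one used for Epcam was below 5. For B-cell precursors, in which neprilysin is the CALLA antigen, the mean over 5 measured markers was 4.17 and 4.28 in EV, 4.17 and 4.10 in WT, and 4.33 and 4.0 in H483A. For neurons and glia, in which Penk is well known, it was 4.43 and 4.52, 4.41 and 4.38, and 4.44 and 4.39. An array has no true zero, so none of these markers can be called absent.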

How the data were processed

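The authors deposited log2 expression values from Affymetrix M430 2.0 arrays, and the submitters' processing notes name RMA, which corrects background, gives all arrays 1 distribution by quantiles and combines each set's probes. A shift of all RNA in a cell is therefore lost. The sources used here name no RMA version. The 6 arrays had medians between 4.55 and 4.60 and were not rescaled.

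Of several probe sets for 1 gene the brightest on average stood for it, passing over IDs that end in _x_at where another existed. Symbols came from the platform annotation, updated through Entrez IDs to the RefSeq gene table. Limma 3.58.1 in R 4.3.3 fitted 1 mean per group over all 6 arrays and 18194 genes, with eBayes and Benjamini-Hochberg adjustment, two-sided. Residual degrees of freedom were 3, with 3.42 added by the prior. The fit was also run on simulated data with 1 common spread for all genes and independent arrays. That run cannot show how the fit behaves for genes that vary as widely as Penk and Mme. Genes like Penk or Mme were named by the highest 5 and lowest 3 Pearson r, leaving out clone, RIKEN and predicted symbols. List genes were named where they passed the 1-unit step, and precursors, receptors and M13 genes by level. Others were named after their values were seen. The members and lists were chosen with earlier results of these data known. Figures were drawn with matplotlib 3.10.9.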

Additional observations from a re-analysis of the deposited data

How the results depend on the processing

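Penk and Mme passed the threshold in no comparison under the alternatives tested with limma, which called 0 genes each time. The alternatives were dim genes left out, all single-gene probe sets, an intensity trend, a second quantile normalization, only the groups compared, the replicate block, and each array left out. Of these only the second normalization and the arrays left out can move a difference of group means, and the first turned none of the 6 fold changes. Leaving out an array of the groups compared turned 11 of 24 values. Mme's dimmer probe set turned 2 of its 3 directions, with 0.28 and 0.07 where the wild-type and the H483A group were set against empty vector. With 1 array left out, Penk lay between -2.31 and 1.66 for wild-type KDM5A against empty vector, between -1.43 and 1.52 for KDM5A-H483A against empty vector, and between -1.62 and 2.36 between the KDM5A forms. Mme lay between -2.16 and 1.65, between -2.69 and 1.22, and between -2.44 and 1.48. An arm left with 1 array was assumed to vary like the other groups. With only arrays of 1 number, an alternative chosen after seeing the data and without a test, the direction turned in 5 of 12 values. First arrays gave 0.78 for Penk and 1.31 for Mme with wild-type KDM5A, 0.89 for Mme with KDM5A-H483A, and -0.14 for Penk between the KDM5A forms. Second arrays gave -0.55 for Penk with KDM5A-H483A.

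The numbers were not taken as pairing the arrays, since the labels tie them to no shared culture or day. The first-minus-second differences correlated across genes at 0.31 between empty vector and wild-type KDM5A, 0.02 between empty vector and KDM5A-H483A, and 0.53 between the KDM5A groups. With the replicate block, limma called 0 genes in each comparison, and 713, 502 and 922 genes had an unadjusted p under 0.05 in the order above, against 459, 301 and 694. The block lowered the SE of each fold change from 1.47 to 0.45 for Penk and from 1.54 to 0.72 for Mme, so the wide intervals of the report hold for the fit without it. The genes named as most like Penk or Mme depend on the measure: by the root mean square difference of centred profiles, 0 of 5 were shared for either gene. Mme's dimmer probe set gave a mean first-minus-second difference of 1.07 over the KDM5A groups in place of 3.86.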
